A study of Mus musculus with 85 samples.

Results

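The step from the mid to the late 2-cell stage of the mouse embryo was described here as the difference between 3 libraries of late 2-cell embryos, collected 48 h after the hCG injection used to time ovulation, and 4 libraries of mid 2-cell embryos collected at 42 h. The libraries were taken by their labels, and the comparison was chosen with earlier results of these data known. These libraries make up 7 of the 85 analysed, which fall into 21 groups by stage, age and medium. All embryos of both groups were wild type, of the B6C3F1/J strain, and were cultured in the standard medium, KSOM, with lactate at 5 mM and with pyruvate and glucose at 0.2 mM each. Early 2-cell embryos at 34 h (3 libraries) and very late 2-cell embryos at 52 h (3 libraries), of the same strain and medium, were the neighbouring stages. RNA was read with Smart-seq2, which starts cDNA from poly(A) tails, and levels are CPM, the share of a library that a gene takes. The number of embryos in a library and of separate cultures is not given in the sources used here, so p-values here speak of the spread from library to library alone, which may be technical.

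A fertilised egg begins life on RNA that the growing oocyte made and stored. In the mouse the embryo's own genome is switched on mainly during the 2-cell stage: a short burst of genes found almost nowhere else, such as the Zscan4 family, comes on first, and the housekeeping genes of transcription, ribosomes and energy supply follow while the stored oocyte RNA is stripped of its tails and destroyed. The step described here lies in the middle of that exchange.

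Between 42 and 48 h the RNA levels of most tested genes changed. Of 20160 genes tested, 8753 (43.4%) were higher at 48 h and 3154 (15.6%) were lower at an adjusted p under 0.05, 59.1% in all. The adjusted p-values here are those of limma with the Benjamini-Hochberg method, on log2(CPM + 1), in a fit of all 12 standard-medium groups. A fold change on that scale understates the change of low genes. With at least a 2-fold change, 5945 genes (29.5%) were higher and 1520 (7.54%) lower, and for 13480 genes (66.9%) the 7 libraries of the groups did not overlap. A fit of the 4 standard 2-cell groups alone called 12915 of 17780 genes (72.6%), 9422 higher (53%) and 3493 lower (19.6%).

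The RNA also became more evenly spread over genes. The 100 highest genes held 41.2 ± 0.961% of a library at 42 h (SD, n = 4) and 25.7 ± 1.71% at 48 h (SD, n = 3), a difference of -15.5 percentage points. Genes above 1 CPM numbered 14969 ± 213 at 42 h (SD, n = 4) and 16359 ± 118 at 48 h (SD, n = 3). Under median-ratio scaling the difference in the number of genes was 257 instead of 1390. The 4 mid and 3 late libraries did not overlap in either value, and each gave p = 0.0286 in an exact two-sided permutation test, the smallest that 35 arrangements allow (adjusted p = 0.0286 over the 2 values). The genes called lower took 51.5% of a mid library and 16.5% of a late one. The genes called higher went from 17.5% to 49.8%. Those lower by at least 4-fold, 303 genes, held 20.0% of the mid and 3.24% of the late libraries, with a median exon length of 1594 bases against 3195 over all tested genes. In contrast, the 1754 genes higher by at least 4-fold took 2.50% at 42 h and 14.1% at 48 h, and their median exon length was 3196.5 bases. All of these sets were chosen by their change between these same libraries. The directions of their shares were thus fixed by the choice, and only the sizes are a description.

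CPM are shares of a library, and the balance of higher and lower calls depended on the scale. Median-ratio scaling centres each library on the genes above 1 CPM in every library of the fit, not on all tested genes. The median log2 change of all tested genes was 0.39 in CPM. It was -0.06 under median-ratio scaling, -0.001 under quantile scaling and -0.11 once a trend with gene length was removed. Higher genes made up 73.5% of the calls in CPM and 43.6%, 49.9% and 47.0% under these 3 scalings, in that order. Under them 25%, 28% and 27.9% of all tested genes were called higher and 32.2%, 28.1% and 31.5% lower. The genes named below as fallers were called lower under each of these scalings except where stated. These samples are bulk and their cDNA starts from poly(A) tails. Fewer cells with a transcript, less per cell, a changed tail length and a change in an embryo's total RNA cannot be told apart.

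The libraries were read to 11.3 to 18.7 M reads at 42 h and to 19.9 to 27.9 M reads at 48 h, a difference whose part in the results was not tested. Late libraries held more mitochondrial RNA, 8.68% to 10.6% against 6.604% to 7.88%. On a line drawn from the early (0) to the late (1) group over 11006 genes, mid libraries 1 to 4 lay at 0.533, 0.547, 0.470 and 0.575. Mid library 3 was thus the least advanced, and more so over falling genes, where it lay at 0.294 against 0.423 to 0.436 in the other mid libraries. The early and late groups define the line, so these positions are a description only.

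Most genes of the oocyte fell. Of 67 tested genes of a 68-gene oocyte list, 46 fell and 6 rose, with a median log2 change of -1.09, and between 52 and 57 fell and 2 rose under the 3 scalings. Their summed level went from 141113 ± 8768 CPM (SD, n = 4) to 43193 ± 4108 CPM (SD, n = 3). In the neighbouring steps, which share the mid or the late libraries with this one, 41 of the 67 fell and 3 rose from 34 to 42 h (7.71% and 43% of all tested genes), and 43 fell and 4 rose from 48 to 52 h (17.6% and 16.4%).

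Rfpl4, an oocyte gene for a RING-finger protein, fell furthest among genes with at least 20 CPM, no overlap between groups and no Gm or Rik name. Mid libraries 1 to 4 held 5000.5, 4204, 4901 and 4523 CPM, and late libraries 1 to 3 held 238, 250.4 and 214 CPM. Every late library lay far below every mid one, a 19.9-fold difference of means (log2 change -4.31, SE 0.22, adjusted p = 2.5e-19). H1foo, the linker histone of the oocyte, stood at 1254, 1152, 2162 and 1109.5 CPM in the mid libraries and at 122, 101.3 and 112 CPM in the late ones (log2 change -3.60, SE 0.20). Mid library 3 was the high one among them, and even the lowest mid library was far above the late libraries. Nlrp4f, of an oocyte family of NLR proteins, went from 1855 ± 571 to 182 ± 6.27 CPM and Bcl2l10, a BCL2-family gene, from 5499 ± 905 to 449 ± 9.53 CPM (SD, n = 4 and n = 3).

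The largest loss in CPM was that of Spin1, a reader of histone marks that is stored in the oocyte. Spin1 alone held 31669 ± 1563 CPM at 42 h (SD, n = 4) and 8567 ± 116 CPM at 48 h (SD, n = 3), after 32614 CPM at 34 h. Next came Tcl1, a co-activator of the kinase AKT, with 17502 ± 1284 and 4054 ± 563 CPM, and Btg4, the adaptor that brings the CCR4-NOT deadenylase to maternal mRNA, with 11097 ± 412 and 1749 ± 139 CPM. E330034G19Rik (9764 ± 914 to 702 ± 51.9 CPM) and Mphosph6, a cofactor of the RNA exosome (10216 ± 575 to 1763 ± 226 CPM), completed the 5 largest losses. Between 34 and 42 h, a step read in CPM only, 43% of all tested genes were called higher and 7.71% lower. None of these 5 was called lower in that step. Spin1 changed by -0.04, Tcl1 by 0.42 and Btg4 by 0.18 on the log2 scale, with adjusted p of 0.92, 0.13 and 0.59. Mphosph6 rose by 0.47 (adjusted p = 0.018). By contrast Rfpl4 (-0.56), H1foo (-1.55) and Nlrp4f (-2.26) had already fallen in that step.

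The other genes with the largest falls were of mixed function. BB287469 went from 952 ± 187 to 58.5 ± 19.7 CPM, after 15.9 CPM at 34 h, so it had risen before it fell. Iglc2, annotated as an immunoglobulin light-chain constant segment, went from 33.6 ± 4.68 to 1.96 ± 0.449 CPM, and Psenen, a subunit of γ-secretase, from 119 ± 21.2 to 9.60 ± 2.90 CPM. Med30, a subunit of the Mediator complex, went from 623 ± 30.2 to 53.8 ± 4.13 CPM (SD, n = 4 and n = 3 throughout). In each of these 4 genes all late libraries lay below all mid libraries.

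The 6 oocyte-list genes that rose are named here because they were the exceptions, and they were chosen after their values were seen. Zp3, a glycoprotein of the zona pellucida, was at 19.6, 21.6, 17.4 and 20.8 CPM in the mid libraries and at 97.1, 79.8 and 86.9 CPM in the late ones (log2 change 2.09, adjusted p = 1.8e-09). Gpr3, the receptor that holds oocytes in meiotic arrest, went from 19.6 ± 1.15 to 58.0 ± 16.7 CPM. These 2 also rose under all 3 scalings. Padi6 (50.1 ± 10.8 to 73.5 ± 8.25 CPM), Khdc3, Zar1l and Sohlh1 rose in CPM by 0.56 to 0.86 on the log2 scale, and none of these 4 was called under any of the 3 scalings. Under median-ratio scaling Padi6 changed by -0.27 (adjusted p = 0.21) and under quantile scaling by -0.10 (adjusted p = 0.70). Khdc3 was not called without late library 2 or 3 (adjusted p = 0.075 and 0.088), nor Padi6 without late library 3 (0.050).

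**Figure D1:**
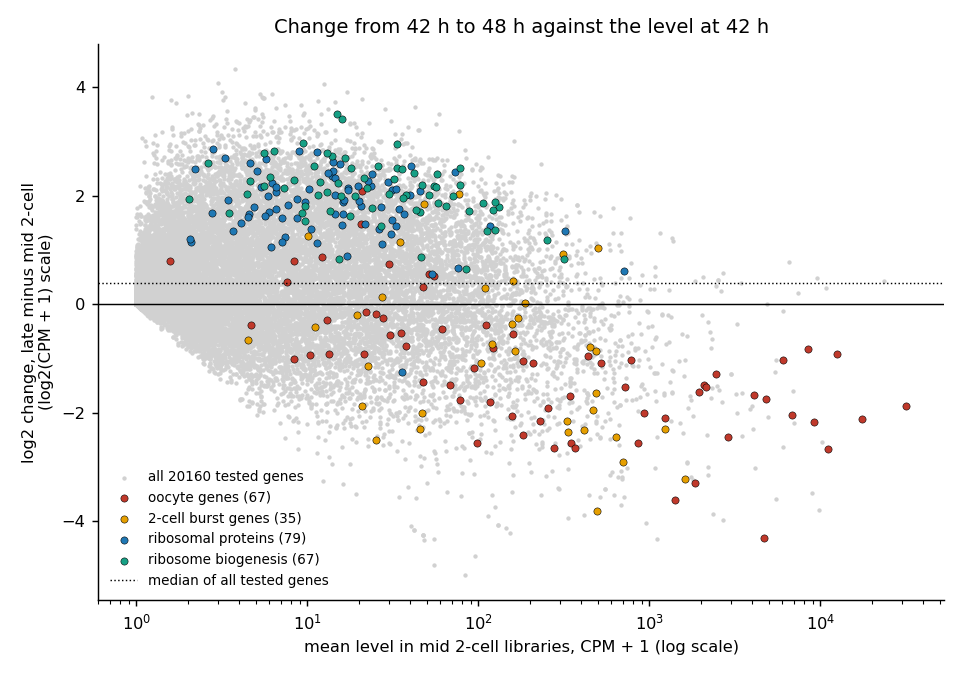
Log2 change from mid (42 h) to late (48 h) 2-cell libraries on the log2(CPM + 1) scale against the mean mid 2-cell level on a log scale, for 20160 tested genes (grey) and 4 gene lists (coloured). Oocyte genes lie mostly low and to the right, ribosome biogenesis genes all lie above 0, and the dotted line is the median of all tested genes, 0.39.

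The 200 bases upstream of Btg4, the decay adaptor among the largest losses, show an oocyte promoter beside those printed further on. The sequence is RefSeq's for GRCm38.p6 and ends at the base before RefSeq's start of the gene. Capitals mark the 1 match to CCAAT (the NF-Y motif) or TATAAA (the TATA box), both searched on both strands, and it starts 50 bases before the gene.

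Btg4, chr9:51115801-51116000, plus strand: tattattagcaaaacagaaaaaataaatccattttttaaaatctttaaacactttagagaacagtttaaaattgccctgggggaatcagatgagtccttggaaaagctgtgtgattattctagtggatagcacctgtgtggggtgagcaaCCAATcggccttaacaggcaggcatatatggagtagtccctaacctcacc

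Genes of the 2-cell burst mostly fell in this step. Of 35 genes, 20 fell and 5 rose (median log2 change -0.86), and 25 to 28 fell and 2 or 3 rose under the 3 scalings. Over the same genes 33 rose and 1 fell from 34 to 42 h, and 26 fell and 0 rose from 48 to 52 h. Their summed level was 906 ± 24.3 CPM at 34 h (SD, n = 3), 10005 ± 1524 CPM at 42 h (SD, n = 4), 4959 ± 314 CPM at 48 h (SD, n = 3) and 2593 ± 507 CPM at 52 h (SD, n = 3). Of the 4 ages it was highest at 42 h, and the lowest mid library (8052 CPM) was above the highest late one (5226 CPM).

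The Zscan4 genes, which encode zinc-finger proteins known for their role at telomeres, fell together. Zscan4f stood at 1226, 1456, 1003 and 1254 CPM in the mid libraries and at 259.6, 219.9 and 267 CPM in the late ones (log2 change -2.30, SE 0.42, adjusted p = 1.1e-05), after 24.4 CPM at 34 h. The 4 mid libraries were all high and the 3 late libraries all several times lower. Zscan4d went from 637 ± 54.6 to 117 ± 18.5 CPM, Zscan4a from 467 ± 78.7 to 120 ± 7.33 CPM and Zscan4c from 335 ± 42.6 to 64.6 ± 6.599 CPM. Zscan4b and Zscan4e, the low members, went from 24.2 ± 2.41 to 3.99 ± 2.93 CPM and from 19.9 ± 2.95 to 5.22 ± 3.24 CPM (SD, n = 4 and n = 3 throughout). All 6 fell under every scaling. They lie on chromosome 7 between 10794242 and 11402318 (GRCm38) and resemble each other closely, so the reads of 1 copy may be counted on another and the levels of single copies are uncertain. GENCODE lists Zscan4a as an unprocessed pseudogene and the other 5 as protein coding.

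Of the 6 Zscan4 genes, 4 had an entry in the RefSeq promoter table, and all 4 held both TATAAA and CCAAT within 250 bases upstream. Among all 27025 promoters of the table, 12.97% held TATAAA and 34.5% held CCAAT on either strand. Of the 10 motifs searched, all 4 also held CCACCC and AAGGTCA, and near-identical copies share such letters without being separate cases. Zscan4c, Zscan4d and Zscan4f are printed with TATAAA and CCAAT in capitals, to show these letters and how alike the copies are. A match describes the letters only and is no evidence of binding.

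Zscan4c, chr7:11005625-11005744, plus strand: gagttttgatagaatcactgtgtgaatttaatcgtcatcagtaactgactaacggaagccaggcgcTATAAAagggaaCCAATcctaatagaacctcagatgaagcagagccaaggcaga
Zscan4d, chr7:11166149-11166268, minus strand: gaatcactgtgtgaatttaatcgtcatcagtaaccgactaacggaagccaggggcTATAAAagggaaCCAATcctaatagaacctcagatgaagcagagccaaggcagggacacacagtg
Zscan4f, chr7:11397795-11397914, plus strand: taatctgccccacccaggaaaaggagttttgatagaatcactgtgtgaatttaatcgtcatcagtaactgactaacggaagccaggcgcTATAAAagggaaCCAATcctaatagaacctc

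Other burst genes fell further. Gm4340 went from 493 ± 54.7 to 34.3 ± 5.95 CPM, and Tcstv1, of a small 2-cell gene family, from 702 ± 127 to 92.5 ± 12.1 CPM (SD, n = 4 and n = 3). Gm8300 was at 1882, 1979, 1139 and 1437 CPM in the mid libraries and at 146, 182 and 175 CPM in the late ones, so that all mid libraries were at least several times higher (log2 change -3.23, SE 0.38). Zfp352, a zinc-finger gene of the same burst, changed by -0.86 and did not pass (adjusted p = 0.19), although its mid libraries (405 to 547 CPM) did not overlap the late ones (214 to 306 CPM). In the fit of the 2-cell groups alone its change was the same and adjusted p was 1.7e-05.

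The 5 burst genes that rose were named after their values were seen. Pramel7 and Pramel6, of a family of leucine-rich proteins, went from 76.5 ± 11.9 to 315 ± 26.2 CPM and from 46.8 ± 8.51 to 169 ± 15.9 CPM (SD, n = 4 and n = 3), and these 2 rose under every scaling. Sp110, a nuclear body gene, went from 497 ± 71.1 to 1012 ± 98.0 CPM and Tdpoz2 from 9.08 ± 3.01 to 22.3 ± 2.63 CPM. Sp110 was not called under median-ratio scaling or with the length trend removed, nor Tdpoz2 under median-ratio or quantile scaling. Duxbl1, a relative of the double-homeobox gene Dux, went from 33.7 ± 5.66 to 74.8 ± 1.73 CPM (adjusted p = 0.037), and it was not called under any of the 3 scalings or without any single library other than mid library 1 or 2 (adjusted p = 0.064 to 0.083).

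**Figure D2:**
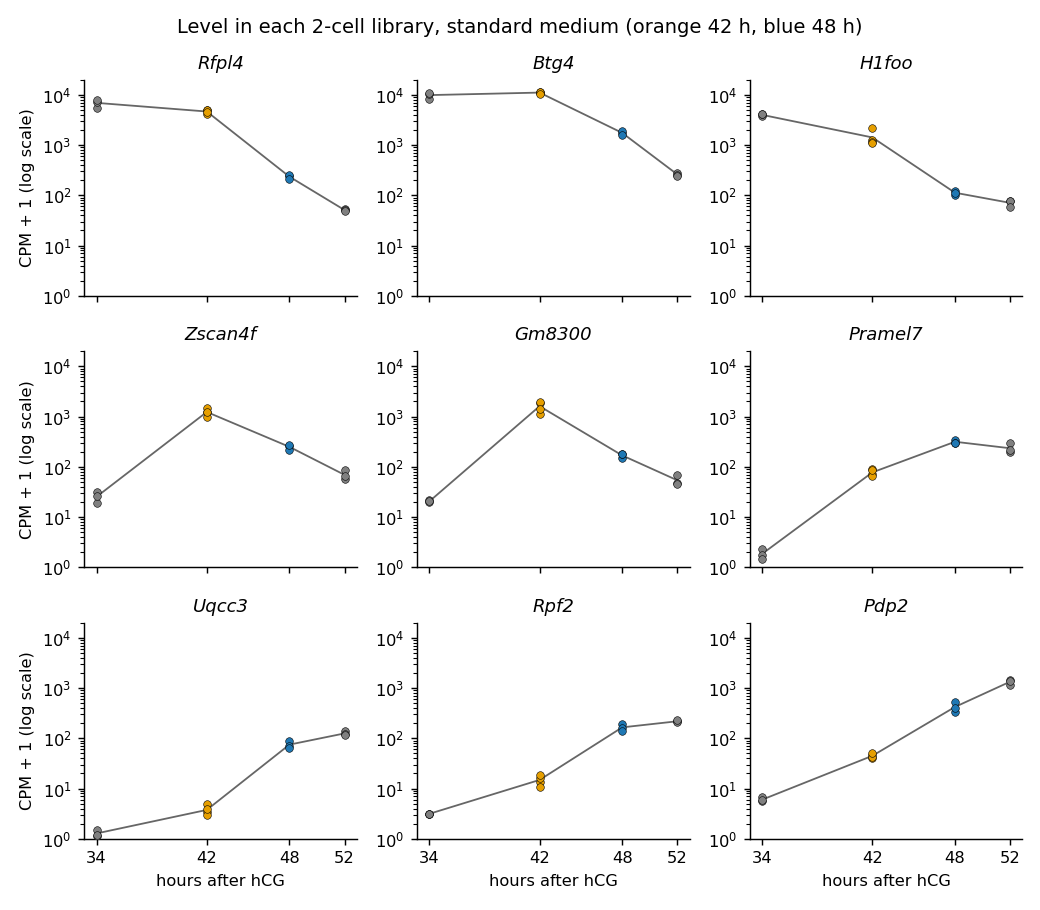
Level of 9 genes in each 2-cell library of the standard medium (points, CPM + 1 on a log scale) and group means (lines) at 34, 42, 48 and 52 h after hCG. Rfpl4, Btg4 and H1foo fall, Zscan4f and Gm8300 are highest at 42 h, Pramel7 is still higher at 48 h, and Uqcc3, Rpf2 and Pdp2 climb through all 4 ages.

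Transcription factors known or proposed to act in genome activation mostly rose: 24 of 34 rose and 4 fell (median log2 change 1.37), and 17 to 20 rose and 4 to 7 fell under the 3 scalings. The 4 that fell were all of the Obox family of homeobox genes, of which some copies are stored in the oocyte and others are made by the embryo. Obox5 stood at 9559, 8766, 8678 and 8670.0 CPM in the mid libraries and at 748, 934 and 735 CPM in the late ones (log2 change -3.47, SE 0.25, adjusted p = 2.3e-15). Obox1 went from 2692 ± 372 to 171 ± 29.6 CPM, Obox7 from 686 ± 51.1 to 52.6 ± 13.4 CPM and Obox2 from 691 ± 139.7 to 72.9 ± 10.5 CPM (SD, n = 4 and n = 3). All 4 had been at 3038 to 11006 CPM at 34 h.

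Obox6 and Obox8 went the other way. Obox6 was at 243, 279.7, 188 and 264 CPM in the mid libraries and at 921, 941 and 911 CPM in the late ones (log2 change 1.94, SE 0.22), after 3.14 CPM at 34 h. Obox8 went from 41.4 ± 17.1 to 494 ± 15.8 CPM (SD, n = 4 and n = 3; log2 change 3.63, SE 0.40), after 1.10 CPM at 34 h. Both rose under every scaling, and no late library overlapped a mid one. Obox3 was at 541 ± 69.9 and 521 ± 98.6 CPM and did not pass (adjusted p = 0.79), although under median-ratio scaling it changed by -0.91. At 48 h the order of the 7 means was Obox6, Obox5, Obox3, Obox8, Obox1, Obox2 and Obox7, and the libraries of Obox5 and Obox6, those of Obox3 and Obox8, and those of Obox2 and Obox7 overlapped in range. The genes lie on chromosome 7 between 14331436 and 15839678 (GRCm38), and counting may have mixed near-identical copies.

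**Figure D3:**
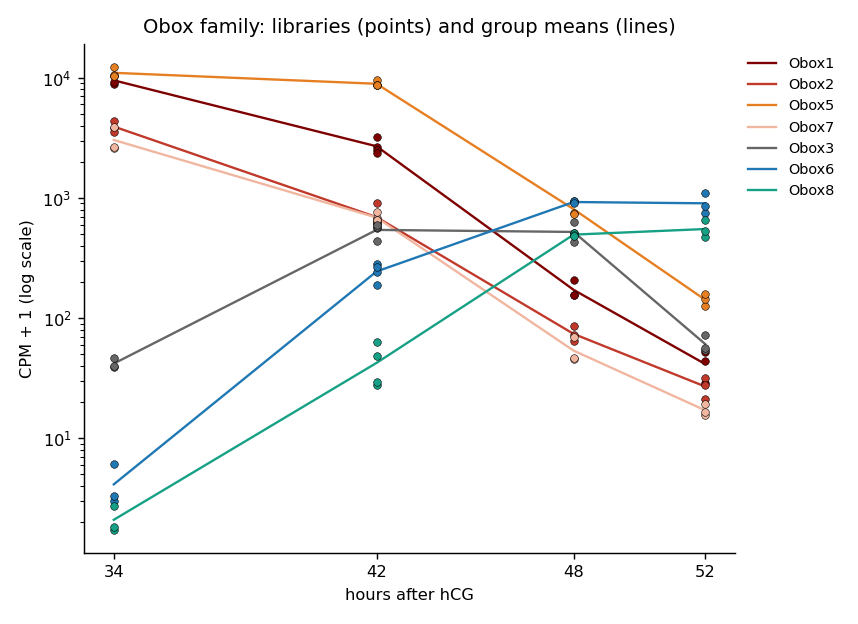
Obox family levels in each 2-cell library (points, CPM + 1 on a log scale) and group means (lines) at 34, 42, 48 and 52 h after hCG. Obox1, Obox2, Obox5 and Obox7 fall across 42 to 48 h, Obox6 and Obox8 rise, and the libraries of Obox3 at 42 and 48 h overlap.

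Several other activation factors rose, and 6 of the 34 did not pass. Dppa4 and Dppa2, a pair of chromatin factors upstream of the 2-cell burst, went from 60.5 ± 11.7 to 383 ± 22.1 CPM and from 92.6 ± 6.40 to 362 ± 21.5 CPM (SD, n = 4 and n = 3). Rarg, a retinoic acid receptor, was at 2.48, 1.81, 1.28 and 1.71 CPM in the mid libraries and at 13.4, 24.7 and 31.0 CPM in the late ones (log2 change 3.03, SE 0.29). Nr5a2, an orphan nuclear receptor, went from 26.4 ± 4.6 to 80.2 ± 6.40 CPM, and Klf5, a Krüppel-like factor, from 13.3 ± 2.57 to 39.2 ± 2.36 CPM. These 5 were picked for their known role after their values were seen, and each rose under every scaling.

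Most of the genes named for the largest rises were below 5 CPM at 42 h. Uqcc3, an assembly factor of respiratory complex III, was at 2.39, 3.84, 1.93 and 2.87 CPM in the mid libraries and at 88.6, 70.8 and 62.2 CPM in the late ones (log2 change 4.33, SE 0.23, adjusted p = 2.5e-19). It was thus barely above the filter in every mid library and well above it in every late one. Tbrg1, a growth regulator, went from 11.5 ± 1.64 to 205 ± 13.4 CPM, Pitpnb, a phosphatidylinositol transfer protein, from 16.0 ± 2.29 to 254 ± 18.99 CPM, and Surf2 from 2.15 ± 0.446 to 46.0 ± 1.99 CPM. Slc4a11, a membrane transporter, varied most among the late libraries, at 26.9, 55.2 and 74.1 CPM, against 1.18 to 3.19 CPM in the mid libraries. Ttyh2, Cybc1, Smyd5 and Gins3 were also named by this rule, with log2 changes of 3.79 to 3.87. The 9 genes named here also passed under every alternative processing that was tried.

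In plain amount the largest gain was that of Prps1, which makes the ribose donor PRPP of nucleotide synthesis. Prps1 was at 1515.9, 1516.1, 934 and 1428 CPM in the mid libraries and at 2998, 3215 and 3049 CPM in the late ones (log2 change 1.22, SE 0.27, adjusted p = 0.00012). Mid library 3 was the low one, and all mid libraries lay below all late ones. Gm10184 (1148 ± 83.1 to 2853 ± 258 CPM), Map1lc3b, the LC3B protein of autophagosomes (767 ± 133 to 2310.1 ± 368 CPM), Alppl2, an alkaline phosphatase (231 ± 43.2 to 1374 ± 171 CPM), and Timd2 (161 ± 45.7 to 1259 ± 117 CPM) followed (SD, n = 4 and n = 3 throughout). Under median-ratio scaling the rises of Prps1 and Gm10184 were 0.38 and 0.47 and no longer passed.

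All 67 ribosome biogenesis genes rose (median log2 change 2.03), and 62 to 64 rose and 0 fell under the 3 scalings. Their summed level went from 2883 ± 314 to 10588 ± 176 CPM (SD, n = 4 and n = 3). Rpf2, which places the 5S particle in the large subunit, was at 12.8, 14.9, 9.71 and 18.04 CPM in the mid libraries and at 191, 160.4 and 141 CPM in the late ones (log2 change 3.50, SE 0.16, adjusted p = 2.3e-21). Every late library was thus several times the highest mid library. Wdr74, another factor of the large subunit, went from 15.04 ± 3.85 to 167 ± 5.22 CPM, and Ddx10, a helicase of the nucleolus, from 8.48 ± 2.54 to 71.9 ± 9.67 CPM.

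The ribosomal proteins also rose, with 78 of 79 higher and 1 lower (median log2 change 1.88), and 63 to 73 rose under the scalings. Rps27 (1.82 ± 0.685 to 18.96 ± 2.07 CPM), Rpl14 (7.90 ± 1.23 to 61.5 ± 5.97 CPM) and Rps29 (10.4 ± 2.97 to 78.7 ± 18.3 CPM) rose furthest. Rpl17 was the exception, at 34.7 ± 1.91 and 14.1 ± 3.06 CPM, and fell under every scaling. Ribosomal protein genes have many near-identical processed copies, so single levels are uncertain. RNA polymerases I and III, which make ribosomal and transfer RNA, rose in 32 of 34 genes and fell in 0 (median 1.87), with 27 to 30 higher and 0 or 1 lower under the scalings. Polr3g, a subunit of polymerase III, went from 15.5 ± 3.41 to 113 ± 12.3 CPM and Taf1b, of the polymerase I start complex, from 12.02 ± 3.55 to 85.3 ± 2.57 CPM.

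Upstream sequences of the ribosome biogenesis genes were searched because the list moved as a block. Of the 67 genes, 58 (86.6%) had a promoter in the RefSeq table, and 18 of the 58 (31.0%) held CCGGAAG, the core of the ETS motif, on either strand within 250 bases upstream. Of all 27025 promoters given by RefSeq, 7.05% did, and among the 12407 tested genes with an entry 12.5% did. The share was the same 31.0% among the 58 ribosomal protein genes with an entry, and 21.5% among the 1221 with an entry that were higher by at least 4-fold, so it was not particular to ribosome biogenesis. The motif was 1 of 10 searched. Of 67 oocyte-list genes, 55 (82.1%) had a promoter, and 0 of the 55 held it. GC content differed between the sets, at 59.0% and 51.5% on average against 53% in the whole table and 58.5% over the tested genes, and its part in the shares was not tested. The bases upstream of Rpf2, Wdr74 and Ddx10, the 3 largest rises of the list, are printed with the match in capitals. The match starts 20 bases before the gene in Rpf2 (on the reverse strand), 27 in Wdr74 and 187 in Ddx10.

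Rpf2, chr10:40247040-40247239, minus strand: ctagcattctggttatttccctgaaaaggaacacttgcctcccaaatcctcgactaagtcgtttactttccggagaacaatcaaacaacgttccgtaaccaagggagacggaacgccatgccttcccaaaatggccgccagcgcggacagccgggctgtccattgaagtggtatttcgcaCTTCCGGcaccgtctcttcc
Wdr74, chr19:8735639-8735838, plus strand: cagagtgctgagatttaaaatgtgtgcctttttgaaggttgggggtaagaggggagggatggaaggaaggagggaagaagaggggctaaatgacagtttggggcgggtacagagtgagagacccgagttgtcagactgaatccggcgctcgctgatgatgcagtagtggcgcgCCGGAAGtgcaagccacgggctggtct
Ddx10, chr9:53248113-53248312, minus strand: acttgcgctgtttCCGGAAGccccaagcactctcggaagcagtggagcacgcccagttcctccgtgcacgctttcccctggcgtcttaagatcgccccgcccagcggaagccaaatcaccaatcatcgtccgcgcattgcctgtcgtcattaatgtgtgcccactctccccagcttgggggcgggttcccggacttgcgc

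Messenger RNA synthesis and processing rose less evenly. Of 51 genes of RNA polymerase II and its general factors 41 rose and 5 fell (median log2 change 1.44), with 28 to 33 higher and 7 to 10 lower under the scalings. Polr2a, the largest subunit of the enzyme, was at 2.75, 1.58, 1.77 and 1.77 CPM in the mid libraries and at 7.13, 25.8 and 25.5 CPM in the late ones (log2 change 2.61, SE 0.40). Late library 1 was the low one, though still above every mid library. Polr2m went from 8.77 ± 0.224 to 92.1 ± 21.3 CPM and Gtf2h2, of the factor that opens the promoter, from 6.19 ± 1.18 to 42.6 ± 3.78 CPM. The 5 that fell were Polr2c (1069 ± 65.8 to 445 ± 23.3 CPM), Gtf2a2, Gtf2b, Polr2g and Tbpl2, the TATA-binding protein of the oocyte (11.8 ± 0.936 to 1.96 ± 0.710 CPM). Polr2g was not called without late library 2 or 3 or mid library 3 (adjusted p = 0.081, 0.30 and 0.18).

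Of 49 spliceosome genes 36 rose and 5 fell (median 1.36), with 24 to 29 higher and 9 to 12 lower under the scalings. Snrpc, of the U1 particle, was at 18.8 to 24.3 CPM in the mid libraries and at 71.6, 285 and 183.1 CPM in the late ones, again with late library 1 lowest. Lsm8 went from 18.6 ± 2.13 to 114 ± 16.8 CPM and Sf3b4 from 1.27 ± 0.627 to 13.2 ± 7.21 CPM. The fallers were 4 genes of snRNP proteins, Snrpb2, Snrpe, Snrpf and Snrpg (log2 changes -0.74 to -1.17), and Srsf3, which missed the threshold without late library 2 (adjusted p = 0.051).

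Genes of translation and protein handling also rose in most cases. Of 51 translation factors 41 rose and 2 fell, and 35 to 39 rose and 5 to 8 fell under the scalings. Eif3m, of the factor that recruits the small subunit, was at 5.85, 5.05, 4.86 and 6.42 CPM in the mid libraries and at 81.3, 77.6 and 76.8 CPM in the late ones (log2 change 3.61, SE 0.13), and Eif3g (10.99 ± 3.73 to 129 ± 8.52 CPM) and Eif3e (14.6 ± 2.72 to 111 ± 8.56 CPM) rose beside it. Eif4e1b, the oocyte form of the cap-binding protein, fell from 41.5 to 16.2 CPM, and Eif4a1 fell by 0.40 but was not called without late library 2 or 3 or mid library 3 (adjusted p = 0.076, 0.17 and 0.18). Of 20 tRNA synthetases 14 rose and 1, Farsb, fell, and 9 to 12 rose and 2 fell under the scalings. Rars rose furthest, from 25.7 ± 6.91 to 206 ± 11.7 CPM, ahead of Mars (2.29 ± 0.441 to 17.2 ± 4.27 CPM) and Hars (7.56 ± 0.8291 to 38.7 ± 1.38 CPM).

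Of 37 proteasome genes 29 rose and 4 fell. Psma6, a subunit of the core ring, was at 16.7, 20.4, 20.98 and 21.4 CPM in the mid libraries, as at 34 h (20.2 CPM), and at 318, 285 and 252 CPM in the late ones (log2 change 3.78, SE 0.14). Psma6 was thus not called higher in CPM between 34 and 42 h (log2 change -0.03, adjusted p = 0.90) and rose 14.4-fold in the next step. Psmd14 went from 17.7 ± 3.72 to 186 ± 14.03 CPM and Psmd13 from 2.39 ± 0.171 to 33.2 ± 4.91 CPM, and Psmb3, Psmb6, Psmd9 and Psmd10 fell. Of 32 chaperone genes 24 rose, led by Pfdn6 (5.79 ± 1.47 to 62.0 ± 5.92 CPM), Hspa4 and Tcp1, and Ahsa1, Hspe1 and Pfdn4 fell. Of 48 nuclear transport genes 35 rose, led by Tnpo3 (31.6 ± 7.68 to 283 ± 44.5 CPM), Xpot and Ipo11, and 2 fell: Nup37 and Kpna7, an importin of the oocyte (153 ± 31.3 to 33.9 ± 1.303 CPM). Under the scalings 23 to 25 proteasome genes rose and 5 or 6 fell, 14 to 17 chaperone genes rose and 5 to 7 fell, and 25 to 31 transport genes rose and 8 to 10 fell.

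**Figure D4:**
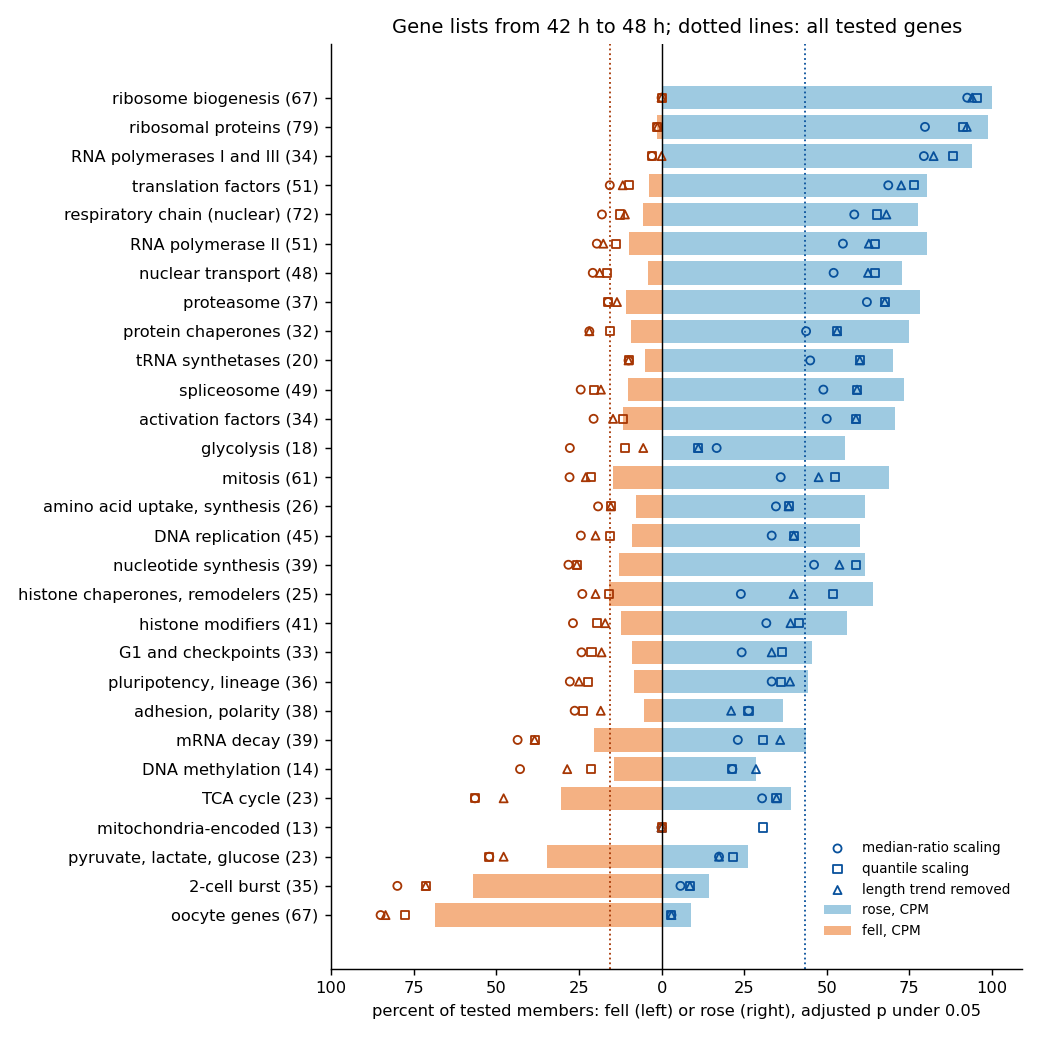
Percent of the tested members of 29 gene lists (number tested in brackets) that rose (right) or fell (left) from mid to late 2-cell, in CPM (bars) and under 3 other scalings (open symbols). Dotted lines show the same for all tested genes in CPM, 43.4% higher and 15.6% lower; ribosome biogenesis stands at the top and the oocyte genes at the bottom.

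Most of the members of these lists that fell in CPM had been abundant in the early embryo. The 13 lists were those of transcription, splicing, ribosomes, translation, proteasome, chaperones, transport, nucleotides, respiration and DNA replication. Under the 3 scalings more members of most of these lists fell than in CPM, and the levels of those members at 34 h were not compared. In CPM 504 genes rose, 36 fell and 84 did not pass. At 34 h the median level was 6.12 CPM for those that rose, 187 CPM for those that fell and 42.4 CPM for the rest. The libraries at 34 h are outside the comparison but within the same fit. In the mid libraries the medians were 18.9, 122 and 50.7 CPM, in the same order. A gene with almost no RNA in the mid libraries cannot be called lower, so the genes that fell had to be higher there. The part of this selection in the levels at 34 h was not tested. At 48 h the medians were 73.7, 68.5 and 59.5 CPM. The medians thus differed widely at 34 h and little at 48 h. CPM is not scaled to gene length, and the median exon lengths of the 3 sets were 3309.5, 2996 and 3787.5 bases.

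**Figure D5:**
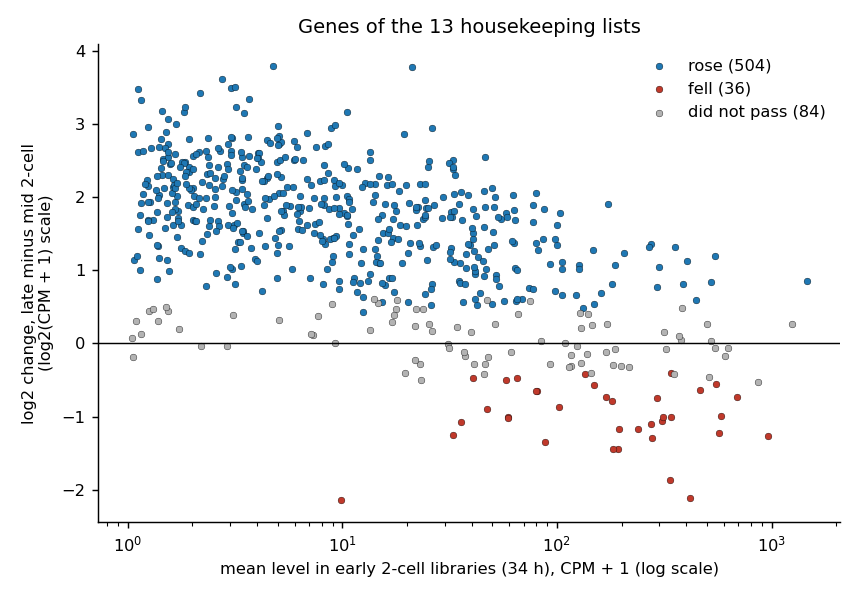
Log2 change from mid to late 2-cell (log2(CPM + 1) scale) against the mean level at 34 h (CPM + 1, log scale) for the genes of 13 housekeeping lists. The 36 genes called lower in CPM (red) lie mostly to the right, at a median of 187 CPM, and the 504 called higher in CPM (blue) at a median of 6.12 CPM.

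Nuclear genes of the respiratory chain mostly rose. Of 72 nuclear genes of the respiratory chain 56 rose and 4 fell (median log2 change 1.40), with 42 to 49 higher and 8 to 13 lower under the scalings. Uqcrc1, a core subunit of complex III, went from 6.03 ± 1.59 to 62.0 ± 10.96 CPM, Ndufb7, of complex I, from 0.885 ± 0.397 to 13.8 ± 1.46 CPM and Cox7c, of complex IV, from 1.98 ± 0.362 to 22.2 ± 3.07 CPM (SD, n = 4 and n = 3). The fallers were Cox6c, Ndufa4, Ndufab1 and Ndufa10, and only Ndufa10 kept its call without each library in turn. Cox6c lost it without late library 3, mid library 1 or mid library 3 (adjusted p = 0.15, 0.081 and 0.055), Ndufa4 without late library 2 or 3 or mid library 1 (0.099, 0.12 and 0.14), and Ndufab1 without late library 2 or 3 (0.10 and 0.058). Of 13 genes encoded in the mitochondria, summed at 67799 ± 5372 and 90646 ± 10095 CPM, 0 passed in limma in CPM, under median-ratio scaling or with the length trend removed (2 had an unadjusted p under 0.05 in CPM), while 4 rose under quantile scaling and 10 in the fit of the 2-cell groups alone.

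In pyruvate, lactate and glucose handling more genes fell than rose. Pdp2, Pdha1 and Mpc2 were among those that rose, and Ldhb and Slc2a1 were among those that fell. Pyruvate is the fuel that the early mouse embryo needs before it can use glucose. Of 23 tested genes of pyruvate, lactate and glucose handling 6 rose (26.1%) and 8 fell (34.8%), against 43.4% and 15.6% of all tested genes. Under the scalings 4 or 5 rose and 11 or 12 fell. Pdp2, the phosphatase that activates pyruvate dehydrogenase, was at 38.7, 45.1, 40.6 and 51.0 CPM in the mid libraries and at 524, 327 and 409 CPM in the late ones (log2 change 3.21, SE 0.34, adjusted p = 8.6e-11). Pdha1, a subunit of that enzyme, went from 23.8 ± 3.54 to 98.6 ± 12.2 CPM and Mpc2, of the pyruvate carrier, from 44.9 ± 7.97 to 145 ± 18.1 CPM. The partner Mpc1 went from 305 ± 27.4 to 435 ± 65.1 CPM (log2 change 0.50, adjusted p = 0.011). It was not called without late library 1 or 2 (adjusted p = 0.059 and 0.051). It changed by -0.34 under median-ratio scaling and by 0.0005 with the length trend removed, and was called in neither.

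Ldhb, the lactate dehydrogenase subunit stored in the oocyte, was at 1272, 1093, 1713 and 882 CPM in the mid libraries and at 272, 296 and 272 CPM in the late ones (log2 change -2.10, SE 0.28). Its relative Ldha was at 76.8 ± 12.2 and 65.0 ± 6.47 CPM and did not pass (adjusted p = 0.50), though it changed by -1.06 under median-ratio scaling. Slc2a1, the glucose carrier GLUT1, fell from 27.0 ± 3.21 to 7.18 ± 0.635 CPM. Slc2a3, the carrier GLUT3, rose from 12.8 ± 1.37 to 30.6 ± 3.97 CPM and was not called under any of the 3 scalings (log2 changes 0.40, 0.53 and 0.61 with adjusted p = 0.41, 0.27 and 0.19) or without late library 3 (0.057). The lactate and pyruvate carrier Slc16a1 (68.5 ± 13.7 and 104 ± 33.1 CPM, adjusted p = 0.078) and the kinase Pdk1 (23.1 ± 2.71 and 34.8 ± 4.64 CPM, 0.060) did not pass, although the 2-cell fit called both (0.015 and 0.0032). The carrier Slc16a7 was near 1 CPM and its fall of 0.33 (adjusted p = 0.038) did not pass in that fit (0.18). Myc rose from 2.54 ± 0.788 to 9.58 ± 1.93 CPM, and Mycl, at 1.38 ± 0.974 and 1.76 ± 0.325 CPM, did not pass (adjusted p = 0.58).

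Glycolysis and the TCA cycle showed smaller shifts. Of 18 glycolysis genes 10 rose (55.6%) and 0 fell, against 43.4% and 15.6% of all tested genes. Under the scalings 2 or 3 of the 18 rose and 1 to 5 fell. Of all tested genes 25% to 28% were then called higher and 28.1% to 32.2% lower. Pfkfb3, which sets the pace of glycolysis, went from 2.35 ± 0.537 to 17.9 ± 3.49 CPM and Pgam1 from 37.4 ± 5.78 to 112 ± 21.4 CPM, while Eno1 (10.1 ± 1.13 to 20.6 ± 3.24 CPM) was not called under any of the 3 scalings (log2 changes 0.16, 0.28 and 0.34 with adjusted p = 0.68, 0.47 and 0.37) or without late library 2 (0.063). Of 23 TCA cycle genes 9 rose (39.1%) and 7 fell (30.4%), against 43.4% and 15.6% of all tested genes. Under the scalings 7 or 8 rose and 11 to 13 fell. Idh3b (3.61 ± 1.08 to 33.6 ± 5.00 CPM), Mdh2 (64.9 ± 5.80 to 412 ± 38.2 CPM) and Idh2 (1.19 ± 0.186 to 11.1 ± 1.38 CPM) rose furthest.

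Of 39 nucleotide synthesis genes 24 rose (61.5%, against 43.4% of all tested genes). They were led by Impdh1, the entry to guanine nucleotides (1.80 ± 0.549 to 31.9 ± 13.3 CPM), Aprt (19.9 ± 5.69 to 179.97 ± 14.4 CPM) and Umps (10.4 ± 1.03 to 100.1 ± 5.78 CPM). Impdh1 was at 16.5 CPM in late library 1 against 38.9 and 40.2 CPM in the other late libraries, and the highest mid library held 2.32 CPM. The 5 that fell were Adk, Adss, Cmpk1, Dut and Mthfd2 (log2 changes -0.64 to -1.296). Of 26 genes of amino acid uptake and synthesis 16 rose (61.5%) and 2, Slc7a2 and Slc7a11, fell. Slc7a11 was not called without late library 2 (adjusted p = 0.057) or with a pseudocount of 0.1 CPM (0.36). Slc1a1, a glutamate carrier (23.5 ± 4.82 to 157 ± 9.77 CPM), and Phgdh and Psat1, which make serine (6.35 ± 0.830 to 44.2 ± 5.72 CPM and 76.1 ± 18.6 to 384 ± 29.0 CPM), led this list. Under the scalings 18 to 23 nucleotide genes rose and 10 or 11 fell, and 9 or 10 amino acid genes rose and 4 or 5 fell.

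Cell cycle genes mostly rose in CPM and were divided under the scalings. Of 45 replication genes 27 rose (60%) and 4 fell (8.89%), against 43.4% and 15.6% of all tested genes. Under the scalings 15 to 18 rose and 7 to 11 fell. Gins3 and Gins1, of the helicase that opens the fork, went from 4.54 ± 0.696 to 76.0 ± 11.8 CPM and from 4.73 ± 0.562 to 38.0 ± 8.29 CPM, and Prim1, the primase, from 16.5 ± 2.76 to 113 ± 11.3 CPM. Dbf4, Orc5, Pole3 and Rpa3 fell (log2 changes -0.56 to -1.45). Of 61 mitosis genes 42 rose (68.9%) and 9 fell (14.8%), and 22 to 32 rose and 13 to 17 fell under the scalings. Aurkb, the kinase that corrects spindle attachments (25.1 ± 4.64 to 151 ± 7.05 CPM), Top2a (29.2 ± 4.29 to 141 ± 7.66 CPM) and Kif11 (47.1 ± 6.61 to 217 ± 13.6 CPM) rose furthest. Wee2, the oocyte's inhibitor of CDK1, fell from 2141 ± 90.9 to 743 ± 91.2 CPM and was chosen after its values were seen.

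Of 33 genes of G1 and the checkpoints 15 rose (45.5%, near the 43.4% of all tested genes) and 3 fell. The checkpoint kinases went apart: Chek2 rose from 26.5 ± 5.13 to 146 ± 5.13 CPM and Chek1 fell from 545 to 208 CPM. Cdk4 (5.15 ± 0.313 to 29.0 ± 3.38 CPM) and its partner Ccnd1 (2.25 ± 0.661 to 10.5 ± 3.36 CPM) rose, and Ccne2 and E2f5 fell from 245 to 128 CPM and from 622 to 211 CPM. Under the scalings 8 to 12 of this list rose and 6 to 8 fell.

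Of 39 mRNA decay genes 17 rose (43.6%) and 8 fell (20.51%), shares near the 43.4% and 15.6% of all tested genes, and 9 to 14 rose and 15 to 17 fell under the scalings. Beside Btg4, the deadenylase genes Cnot7 (2537 ± 88.3 to 848 ± 40.7 CPM) and Cnot6l (207 ± 14.3 to 119 ± 5.62 CPM) fell, both named after their values were seen. Dis3, the nuclease of the exosome, rose from 15.4 ± 2.80 to 76.0 ± 9.61 CPM and Ythdf2, which reads N6-methyladenosine marks, from 123 ± 17.6 to 471 ± 44.8 CPM.

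Among chromatin genes, 23 of 41 histone modifiers rose (56.1%) and 5 fell (12.2%), against 43.4% and 15.6% of all tested genes. Under the scalings 13 to 17 rose and 7 to 11 fell. Kdm4c and Kdm5b, demethylases of H3K9 and H3K4, went from 11.3 ± 2.598 to 64.2 ± 4.03 CPM and from 72.9 ± 9.996 to 349 ± 37.2 CPM, and Setd2, which writes H3K36 trimethylation, from 77.6 ± 10.1 to 313 ± 62.1 CPM. The fallers were the Polycomb genes Eed (146 ± 11.9 to 90.1 ± 8.29 CPM) and Ezh2, and Hdac2, Kdm1b and Kdm6a. Ezh2 and Hdac2 lost the call without late library 2 (adjusted p = 0.10 in both), and Kdm6a (adjusted p = 0.046) kept it without late library 3 only (0.058 to 0.17 without the others). Of 25 histone chaperones and remodelers 16 rose (64%) and 4 fell (16%). However, 6 rose and 6 fell under median-ratio scaling, 13 and 4 under quantile scaling and 10 and 5 with the length trend removed. Hira (7.54 ± 0.779 to 33.4 ± 5.50 CPM), Smarca4 and Ino80 led the rises. The fallers were H3f3b, which encodes histone H3.3 (5502 ± 261 to 2715 ± 387 CPM, but not called under quantile scaling, with a log2 change of -0.10), Asf1a (342 ± 34.0 to 119 ± 7.62 CPM), Asf1b and Npm2, the nucleoplasmin of the egg (93.9 ± 18.4 to 40.4 ± 1.20 CPM).

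Of 14 DNA methylation genes 4 rose (28.6%, below the 43.4% of all tested genes) and 2 fell. Under the scalings the balance turned or evened out, with 3 higher and 6 lower, 3 and 3, and 4 and 4, in the order median-ratio, quantile and length trend. Tet1, which oxidises methylcytosine, went from 7.32 ± 1.07 to 37.6 ± 5.09 CPM, Mbd3 from 5.92 ± 1.26 to 23.3 ± 6.19 CPM and Apobec3 from 0.973 ± 0.284 to 8.02 ± 0.904 CPM. Dnmt3a, a de novo methyltransferase, went from 33.9 ± 2.64 to 71.2 ± 3.02 CPM and did not pass under median-ratio or quantile scaling (log2 changes 0.22 and 0.44). Dppa3 (Stella), which shields the maternal genome from demethylation, fell from 6032 ± 307 to 2998 ± 583 CPM, though not under quantile scaling (log2 change -0.04). Zfp57, the guardian of imprints, was at 175, 156, 393 and 137 CPM in the mid libraries and at 79.6, 137 and 130.3 CPM in the late ones. Mid library 3 was far above the others, and the call (adjusted p = 0.022) was lost without it (0.18) or without late library 1 (0.17).

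Of 36 pluripotency and lineage genes 16 rose (44.4%, near the 43.4% of all tested genes) and 3 fell, and 12 to 14 rose and 8 to 10 fell under the scalings. Fgf4, the growth factor by which inner cells later signal, was at 8.68, 6.94, 5.24 and 11.9 CPM in the mid libraries and at 63.0, 48.5 and 56.7 CPM in the late ones (log2 change 2.68, SE 0.27). Tead4, needed for trophectoderm, went from 3.62 ± 0.835 to 27.7 ± 2.37 CPM and Prdm14, a naive pluripotency factor, from 1.45 ± 0.496 to 11.9 ± 2.10 CPM. Pou5f1 (OCT4) fell, from 22.2, 23.5, 24.8 and 23.4 CPM to 13.1, 9.90 and 15.5 CPM (log2 change -0.84, SE 0.25, adjusted p = 0.0043), with Gata3 (15.4 ± 1.05 to 5.99 ± 0.0416 CPM) and Krt8 (5.85 ± 2.09 to 2.66 ± 0.399 CPM). Nanog (25.1 ± 3.06 and 21.7 ± 1.85 CPM) and Sox2 (0.668 ± 0.0724 and 1.01 ± 0.382 CPM), named after their values were seen, did not pass in CPM (adjusted p = 0.43 and 0.47). Nanog was called lower under all 3 scalings, by -1.01, -1.06 and -0.71 on the log2 scale (adjusted p = 0.00011, 1.1e-05 and 0.0042).

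Of 38 adhesion and polarity genes 14 rose and 2 fell, below the share of higher genes among all tested, and 8 to 10 rose and 7 to 10 fell under the scalings. Epcam, a cell adhesion molecule, went from 76.3 ± 14.6 to 364 ± 40.1 CPM, Crb3, of the apical domain, from 49.0 ± 2.05 to 211 ± 20.96 CPM and Ctnnb1, the β-catenin that binds cadherins, from 27.9 ± 2.22 to 112 ± 15.8 CPM. Ctnnb1 had fallen from 91.4 CPM between 34 and 42 h. The fallers were Llgl1 and Pard6g (log2 changes -1.06 and -1.29), and Pard6g was not called with a pseudocount of 0.1 CPM (adjusted p = 0.091).

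Markers of other cells that a sample could hold were low. Of 19 genes of cumulus and granulosa cells, 8 were high enough to be tested, 1 rose and 2 fell. The 8 summed to 94.8 ± 6.50 CPM at 42 h and 84.98 ± 8.13 CPM at 48 h (SD, n = 4 and n = 3). Serpine2 (73.0 ± 6.10 to 29.7 ± 1.91 CPM) and Cyp19a1 fell and Amhr2 rose from 6.96 ± 1.20 to 42.2 ± 4.13 CPM. Of 15 sperm genes 4 were tested: Ldhc rose from 3.30 ± 0.623 to 20.2 ± 3.21 CPM, and Acrv1 and Prm2, both below 2 CPM, fell. Of 11 blood genes 4 were tested, and Hba-a2 (5.65 ± 1.44 to 24.2 ± 7.83 CPM), Hba-a1 (3.60 ± 1.48 to 13.6 ± 3.68 CPM) and Cd79a (0.205 to 1.13 CPM, and not under quantile scaling or with the length trend removed) rose. The 4 blood genes summed to 11.4 ± 2.12 and 40.6 ± 10.6 CPM, and the part of such cells in other results was not tested.

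Genes on the X chromosome moved like the rest. The median log2 change was 0.37 over 804 tested X-linked genes and 0.40 over 19111 autosomal ones, and 41.9% and 43.6% of them were called higher. Both values are descriptions, since genes are not replicates.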

How the data were processed

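Poly(A)-primed Smart-seq2 libraries were analysed from the deposited table of CPM values, made by the authors with STAR 2.6.1d per the submitters' processing notes. An offset of 0.0001 is added to the deposited values, and the counter and annotation are not given in the sources used here. Of 91 columns, 85 matched a sample and 6 were not used. Of 37394 entries, 26 named by a number (0.0458% to 0.135% of a library) were left out. Low values were not whole reads (72.2% to 78.4% within 0.1 of a whole number), so no count test was run.

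log2(CPM + 1) was fitted with limma 3.58.1 (R 4.3.3, eBayes with trend) over the 12 standard-medium groups, for the 20160 genes that 3 or more libraries held at over 1 CPM, with Benjamini-Hochberg adjustment. On simulated data this fit made more false calls than a fit of fewer groups. Those false calls were counted in total and not by level, so calls of this fit are less certain at any level, low genes included. Gene types, lengths and coordinates are from GENCODE vM21 (36810 of 37368 symbols matched) and promoters from RefSeq.

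The comparison, the members and the 32 gene lists were chosen with earlier results of these data known. Genes were named by rule: the 10 largest rises and falls with at least 20 CPM, no overlap and no Gm or Rik name; the 5 largest gains and losses in CPM; up to 3 called members per list with at least 10 CPM; and 12 genes of pyruvate, lactate and glucose use. Others are said to be chosen after their values were seen, as are all members named as the few of a list that went against the rest. Of the genes this rule gives, 2 are not reported here.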

Additional observations from a re-analysis of the deposited data

Results flagged for a closer look

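In a group of 4 libraries a single value stands apart by Dixon's criterion when its gap to the nearest of the others, divided by the whole range, is above the 95% critical value. The 4 mid 2-cell libraries were tested for 222 items, and 29 genes passed, where chance flags about 1 in 20. The late group, with 3 libraries, was not tested.

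Mid library 3, the least advanced of the group, was the one apart in 18 of the 29 genes. It was the highest in 13, and each value is given with the range of the other 3 mid libraries. Among them were Cyp19a1 at 8.67 CPM against 5.92 to 6.20, Eif4a1 at 282 CPM against 201 to 209, Farsb at 371 CPM against 221 to 243 and H1foo at 2162 CPM against 1109.5 to 1254. Also high were Nlrp4f at 2703 CPM against 1466 to 1658, Nup37 at 94.6 CPM against 54.5 to 58.7, Obox2 at 899 CPM against 603 to 647 and Pfdn4 at 102 CPM against 66.4 to 71.3. Further ones were Polr2g at 111 CPM against 73.1 to 77.7, Psmd10 at 24.2 CPM against 17.8 to 18.3, Serpine2 at 82.1 CPM against 69.2 to 70.9 and Snrpb2 at 155 CPM against 109 to 114. The last was Zfp57 at 393 CPM against 137 to 175. It was the lowest in 5, which were Ldha at 58.6 CPM against 81.8 to 84.5, Mpc1 at 264 CPM against 315 to 321, Prps1 at 934 CPM against 1428 to 1516, Snrpc at 18.8 CPM against 23.8 to 24.3 and Sp110 at 391 CPM against 519 to 545.

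In the other 11 genes another library stood apart. Mid library 1 was highest in Mbd3 at 7.80 CPM against 5.202 to 5.44, Obox5 at 9559 CPM against 8670.0 to 8766 and Polr2a at 2.75 CPM against 1.58 to 1.77. Mid library 2 was highest in Ccne2 at 269.8 CPM against 234 to 240.2 and Zscan4c at 398 CPM against 309 to 323. Mid library 4 was highest in Eif3e at 18.6 CPM against 12.7 to 13.6, Gins1 at 5.56 CPM against 4.34 to 4.55, Ipo11 at 17.0 CPM against 11.9 to 12.7 and Polr2m at 9.10 CPM against 8.62 to 8.68. Mid library 4 was lowest in Apobec3 at 0.549 CPM against 1.07 to 1.15 and Med30 at 577 CPM against 635 to 639.6. The calls of Polr2g, Eif4a1 and Zfp57 were lost without mid library 3, with adjusted p of 0.18 in each (limma).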

How the results depend on the processing

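The alternatives were a pseudocount of 0.1 CPM, no filter, fits of fewer groups, 3 other scalings, a replicate block and leaving out each of the 7 libraries. Of 218 printed genes, 182 kept their direction and their side of the threshold under all 15. The scalings moved the counts most. Genes called higher and lower numbered 5033 and 6498 under median-ratio scaling, 5641 and 5667 under quantile scaling, and 5625 and 6350 with the length trend removed. With at least a 2-fold change they numbered 2687 and 3935, 3511 and 3315, and 3424 and 3309. The median log2 change of all genes was then -0.056, -0.0014 and -0.11. It was 0.64 with the smaller pseudocount, 0.040 with no filter, 0.54 with the mid and late groups only and 0.53 with the 2-cell groups only. The cause of these shifts was not tested.

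Without single libraries the median ranged from 0.37 to 0.42, the genes called from 10765 to 11509, those higher from 7796 to 8571 and those lower from 2810 to 3054. The share of the 100 highest genes then differed by -16.0 to -14.5 percentage points and the number of genes above 1 CPM by 1322 to 1491, where the smallest p that the exact test allows is 0.1 without a mid and 0.0667 without a late library. Under median-ratio scaling Mpc1 changed by -0.34 and Padi6 by -0.27, and under quantile scaling Padi6 by -0.098, all 3 against a rise in CPM.

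Replicate numbers are those of the sample titles, and the deviations of same-numbered libraries correlated at -0.0255, 0.0463 and 0.0493. The late libraries carry other numbers in the deposited columns. Matched by column number, the correlations were 0.0519, -0.00897 and 0.0515. Such correlations cannot show whether samples shared a culture or a batch. With a replicate block by title number, 12581 of 16676 genes were called, 9116 higher and 3465 lower, with a median of 0.57. The fit of all 12 groups made more false calls on simulated data than that of the 2-cell groups alone. Those false calls were not split by level, so its counts are less certain at any level, low genes included.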
